A study of Mus musculus with 6 samples.

Results

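The 10 genes described here encode CC chemokines that attract monocytes and lymphocytes: Ccl2, Ccl3, Ccl4, Ccl5, Ccl6, Ccl7, Ccl8, Ccl9, Ccl17 and Ccl22. They were chosen by symbol and all 10 are among the 19309 genes of the expression table. The 6 libraries hold poly(A) RNA of cheek tissue from 3 healthy mice of the C57BL/6 strain, which were 6 to 8 weeks old. In the AEW group (3 libraries) the shaved right cheek was wiped for 30 s with an equal mixture of acetone and ether and then for 30 s with distilled water, a model of dry skin. In the vehicle group (3 libraries) the left cheek of the same mice was wiped for 60 s with distilled water. Both sides were treated in the morning and the afternoon of each day, and tissue was collected on day 12. The series title names MMP9, but the labels give no genotype, transgene or MMP9 treatment for any mouse, and the treatment coincided with the side of the face. The replicate number is the mouse number, so each mouse gives a vehicle and an AEW library.

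Chemokines are small secreted proteins that form gradients on matrix sugars and steer cells through G protein-coupled receptors, and the CC class takes its name from a pair of adjacent cysteines near the amino end. Ccl2 and Ccl7 draw monocytes through Ccr2. Ccl3 and Ccl5 act on cells that carry Ccr1, and Ccl4 attracts macrophages and T cells. Ccl17 and Ccl22 draw T cells that carry Ccr4, a receptor of skin-homing and regulatory T cells. Ccl6 and Ccl9 are rodent chemokines made by myeloid cells, and mouse Ccl8 is made by skin macrophages and dendritic cells. Atypical receptors do not call cells, and several of them bind chemokines and remove them from the tissue.

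Libraries held between 18449200 and 19506500 estimated counts, with 15109 genes tested. Keratinocyte markers summed to between 12824 and 28633 CPM (counts scaled to library size, with TMM factors), in keeping with skin as the labelled tissue. Skeletal muscle markers summed to between 29845 and 42728 CPM in vehicle and between 12279 and 16803 CPM in AEW. All 12 had a lower mean in AEW, and 11 of 12 fell past the threshold (edgeR, adjusted p under 0.05), against 6.8% of all tested genes. That count was 3, 2 and 5 without vehicle replicate 1, vehicle replicate 3 and AEW replicate 2. In bulk tissue, fewer cells of a type and less RNA per cell cannot be told apart.

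None of the 8 chemokine genes that could be tested differed between AEW and vehicle skin at an adjusted p under 0.05, in either direction. Over all 15109 tested genes, 4.85% were called higher and 6.8% lower in the edgeR quasi-likelihood test. Ccl3 and Ccl4 had too few counts for the test, with totals of 66 and 37 over the 6 libraries. At an unadjusted p under 0.05 the count was also 0 of 8, against 14.8% of all tested genes higher and 16% lower. DESeq2 called 0 of 8 (9.01% of all genes higher and 10% lower), the block for mouse 0 of 8 (1.99% and 3.89%) and limma-voom with that block 0 of 8 (2.42% and 4.33%). Upper quartile scaling (4.05% and 8.58%) and a filter of 1 CPM in 3 libraries (5.23% and 7.54%) also gave 0 of 8. Without a filter on low counts 0 of 10 were called (3.51% and 5.1%), and limma on the deposited TPM values (scaled for gene length and library size) called 0 of 10 at a pseudocount of 0.1 (4.83% and 4.55%) and of 1 (4.75% and 4.6%). Leaving out vehicle replicate 1 (0.216% and 0.969%), 2 (2.46% and 5.28%) or 3 (0.15% and 0.765%) gave 0 of 9. Leaving out AEW replicate 2 (1.14% and 1.69%) or 3 (2.27% and 4.28%) gave 0 of 8. Fold changes were positive for 7 of the 8, with a median of 0.33 on the log2 scale against 0.014 over all tested genes. Within mice the direction differed: AEW skin held less of these transcripts than vehicle skin in mouse 1 and more in mice 2 and 3, Ccl3 in mouse 1 and Ccl5 in mouse 3 excepted.

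**Figure D1:**
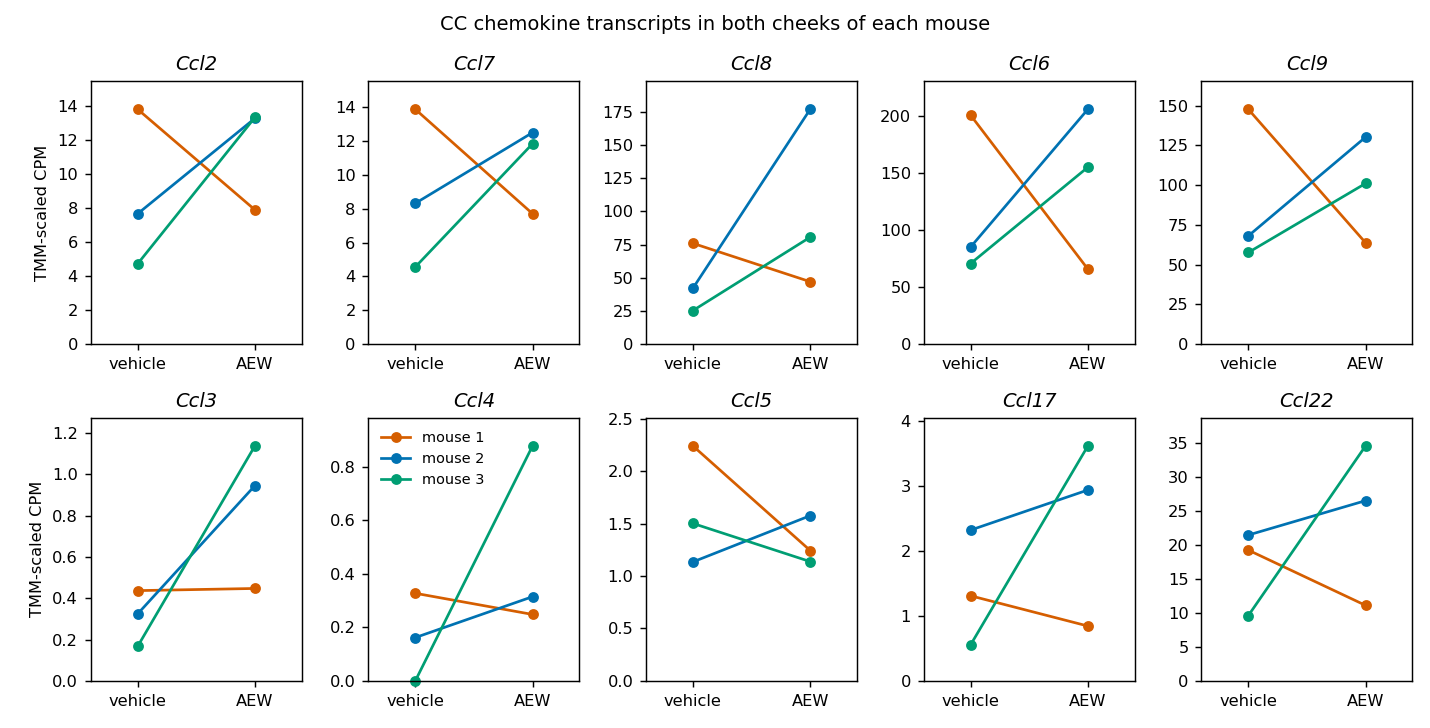
TMM-scaled CPM (y axis, from 0) of the 10 chemokine genes in vehicle and AEW skin, with a line joining both cheeks of each mouse. The line of mouse 1 slopes down for every gene but Ccl3, and those of mice 2 and 3 slope up, except for Ccl5 in mouse 3.

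Ccl2 (gene 20296) and Ccl7 (gene 20306), the monocyte attractants that act through Ccr2, stood at nearly the same level and followed the same pattern. Ccl2 was at 13.8, 7.67 and 4.73 CPM in vehicle skin of mice 1, 2 and 3 and at 7.90, 13.3 and 13.3 CPM in AEW skin. Ccl7 was at 13.9, 8.32 and 4.56 CPM in vehicle and at 7.71, 12.5 and 11.8 CPM in AEW. For both genes the highest of all 6 libraries was the vehicle library of mouse 1 and the lowest the vehicle library of mouse 3, so the groups overlapped. The group means of Ccl2 were 8.74 ± 4.64 CPM in vehicle and 11.5 ± 3.12 CPM in AEW (SD, n = 3 each), a log2 fold change of 0.40 ± 0.39 (SE, edgeR adjusted p = 0.535). Leaving out vehicle replicate 3 gave 0.098 (adjusted p = 0.899), and leaving out vehicle replicate 1 gave 0.89 (adjusted p = 0.186). For Ccl7 the log2 fold change was 0.26 ± 0.39 (SE, edgeR adjusted p = 0.692).

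Ccl8 (gene 20307) had the largest fold change and the smallest p of the tested members, and it too missed the threshold. It was at 76.0, 42.2 and 25.4 CPM in vehicle skin of mice 1, 2 and 3 and at 47.1, 177 and 80.6 CPM in AEW skin. The AEW library of mouse 2 stood far above the others, and the AEW library of mouse 1 lay within the vehicle range. Means were 47.8 ± 25.8 CPM in vehicle and 102 ± 67.4 CPM in AEW (SD, n = 3 each). The log2 fold change was 1.09 ± 0.55 (SE), with a 95% interval from -0.21 to 2.38 and an adjusted p of 0.228 in edgeR. Without AEW replicate 2 it was 0.41 (adjusted p = 0.61), and without vehicle replicate 1 it was 1.59 (adjusted p = 0.185).

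The Ccl8 promoter is shown because this gene had the largest fold change. The window is from the RefSeq annotation of GRCm38.p6, while the submitters' processing notes name GRCm39 for the counts. It covers chr11:82114935-82115234 on the plus strand, from 250 bases before the start of the gene to 50 bases after it. Capitals mark a TATA match that begins 32 bases before the start.
Ccl8: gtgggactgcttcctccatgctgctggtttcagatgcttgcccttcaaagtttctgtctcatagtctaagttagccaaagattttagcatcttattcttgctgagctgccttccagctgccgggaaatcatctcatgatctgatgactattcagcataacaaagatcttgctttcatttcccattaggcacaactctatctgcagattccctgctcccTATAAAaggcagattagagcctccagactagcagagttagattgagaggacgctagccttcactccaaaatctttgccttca
The letters TATAAA, on either strand, occur in 13.6% of the 32851 promoter windows of the same length.

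Ccl6 (gene 20305) and Ccl9 (gene 20308), the myeloid chemokines, had the most counts of the 10 genes, with totals of 14784 and 10718. Ccl6 was at 201, 85.2 and 70.8 CPM in vehicle skin of mice 1, 2 and 3 and at 65.9, 206 and 155 CPM in AEW skin. Ccl9 was at 148, 68.1 and 57.7 CPM in vehicle and at 63.8, 130 and 101 CPM in AEW. Each gene thus had 3 high libraries, the vehicle side of mouse 1 and the AEW sides of mice 2 and 3, and 3 low ones. Group differences were small against that spread, with log2 fold changes of 0.26 ± 0.51 for Ccl6 (SE, edgeR adjusted p = 0.767) and 0.11 ± 0.40 for Ccl9 (SE, edgeR adjusted p = 0.877). Counts of both genes were fractional in 6 of 6 libraries, and those of Ccl8 in 4 of 6, as estimates can be where reads match more than 1 feature. Both directions were unstable: without AEW replicate 2 the log2 fold changes were -0.11 for Ccl6 and -0.15 for Ccl9, and without vehicle replicate 3 they were -0.0070 and -0.13. Without vehicle replicate 2 that of Ccl9 was -0.063. Without vehicle replicate 1 they were 0.87 and 0.64 (adjusted p = 0.309 and 0.257).

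Ccl6 and Ccl9 are direct neighbours in the RefSeq gene order, and their promoters are shown because their levels followed each other across libraries. Both windows lie on the minus strand of GRCm38.p6, at chr11:83593038-83593337 for Ccl6 and chr11:83578587-83578886 for Ccl9. Capitals mark stretches of at least 12 bases found in both windows.
Ccl6: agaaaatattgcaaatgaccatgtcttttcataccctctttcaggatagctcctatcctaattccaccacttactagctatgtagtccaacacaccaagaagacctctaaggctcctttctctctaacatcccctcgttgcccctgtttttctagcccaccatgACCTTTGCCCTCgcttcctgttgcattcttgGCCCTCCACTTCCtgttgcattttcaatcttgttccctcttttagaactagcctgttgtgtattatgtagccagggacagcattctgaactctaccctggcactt
Ccl9: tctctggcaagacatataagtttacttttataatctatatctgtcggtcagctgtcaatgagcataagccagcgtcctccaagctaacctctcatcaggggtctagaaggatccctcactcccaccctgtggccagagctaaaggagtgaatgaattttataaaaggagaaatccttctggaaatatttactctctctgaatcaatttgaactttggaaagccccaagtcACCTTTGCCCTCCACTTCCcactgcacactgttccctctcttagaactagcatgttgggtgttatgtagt
The longest identical run was 13 bases, starting 55 bases before the start of Ccl6 and 14 bases before that of Ccl9. Among the other 14 pairs formed by the 6 members with a promoter in the table, the longest run was 10 bases. The Ccl9 window held a match to the AP-1 motif TGANTCA, read as TGAATCA and beginning 53 bases before the start, and a match to the kappaB motif beginning 35 bases before it. It also held 3 TATA matches. These motifs were found in 7.81% (AP-1) and 8.46% (kappaB) of all promoter windows, and in the Ccl6 window neither was found. The STAT motif (6.95% of windows) was found in the Ccl17 window alone of the 6, and the interferon response motif (3.44%) in none. All motifs were searched on both strands. The TATA matches of Ccl9 begin 224, 94 and 92 bases before the start, and the last 2 overlap.

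Ccl3 (gene 20302) and Ccl4 (gene 20303), attractants of macrophages and T cells, were near the limit of these libraries. Ccl3 had 8, 6 and 3 counts in vehicle skin of mice 1, 2 and 3 and 9, 18 and 22 in AEW skin. In CPM the lowest AEW library (0.447) lay just above the highest vehicle library (0.437), so Ccl3 was the member of the 10 whose groups did not overlap. Among the tested genes 17.4% were higher and 19.5% lower in AEW without overlap, and among the genes with counts below the filter 3.78% were higher. Pooled over libraries, the AEW to vehicle ratio of Ccl3 was 2.70 (95% exact binomial interval 1.53 to 5.00, counting error only). Without AEW replicate 1 Ccl3 passed the filter and was called (log2 fold change 1.72, edgeR adjusted p = 0.0483), 1 of 9 members against 7.83% of all genes called higher and 6.81% lower there. Without a filter on low counts its adjusted p was 0.142. Ccl4 had 6, 3 and 0 counts in vehicle and 5, 6 and 17 in AEW, a pooled ratio of 2.91 (1.34 to 7.02). The AEW library of mouse 3 stood above the rest, at 5.27 times its vehicle library when the 0 there is set to a floor of 3 counts. Without that floor, the 95% exact binomial interval of the ratio began at 3.84. The gene models of Ccl3 and Ccl4 overlap in RefSeq, and without strand information reads in the overlap cannot be told apart.

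Ccl5 (gene 20304), which attracts T cells and is made by cytotoxic lymphocytes among other cells, was the tested member with a negative fold change. It was at 2.24, 1.13 and 1.501 CPM in vehicle skin of mice 1, 2 and 3 and at 1.24, 1.58 and 1.14 CPM in AEW skin. The groups overlapped almost entirely, with a log2 fold change of -0.30 ± 0.32 (SE, edgeR adjusted p = 0.567). Beside it, cytotoxic cell markers summed to between 20.5 and 24.0 CPM in vehicle and between 12.5 and 16.1 CPM in AEW, with 0 of 5 tested markers called. The part of those cells in the Ccl5 values was not tested.

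Ccl17 (gene 20295) and Ccl22 (gene 20299), the ligands of Ccr4, were highest in the AEW library of mouse 3. Ccl22 was at 19.3, 21.5 and 9.62 CPM in vehicle skin of mice 1, 2 and 3 and at 11.1, 26.6 and 34.6 CPM in AEW skin. Ccl17 was at 1.31, 2.32 and 0.556 CPM in vehicle and at 0.845, 2.94 and 3.62 CPM in AEW. In both genes vehicle replicate 3 was the lowest library, and the groups overlapped. Log2 fold changes were 0.52 ± 0.44 for Ccl22 (SE, edgeR adjusted p = 0.465) and 0.81 ± 0.64 for Ccl17 (SE, edgeR adjusted p = 0.431). Without AEW replicate 3 they were 0.16 and 0.43 (adjusted p = 0.852 and 0.738). Without AEW replicate 1 they were 0.85 and 1.22 (adjusted p = 0.113 and 0.153). Without vehicle replicate 3 they were 0.24 and 0.44 (adjusted p = 0.794 and 0.736), and without vehicle replicate 2 that of Ccl17 was 1.39 (adjusted p = 0.268).

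Within mice the direction differed between animals. In mouse 1 all 8 tested members were lower in AEW, with ratios from 0.328 (Ccl6) to 0.645 (Ccl17), and the counting interval lay below 1 for 7 of them. The ratio of Ccl6 there was 0.328 (95% exact binomial interval 0.308 to 0.349). In mouse 2 all 8 were higher, with ratios from 1.24 (Ccl22) to 4.20 (Ccl8), and in mouse 3 7 of 8 were higher, with ratios up to 6.51 (Ccl17). The interval lay above 1 for 6 members in mouse 2 and 7 in mouse 3. Median log2 ratios of the members stood at -0.80, 0.68 and 1.42 for mice 1, 2 and 3, while the median over all tested genes was between -0.0071 and 0.0051. Of all tested genes 50.7% were lower in mouse 1, 49.2% higher in mouse 2 and 50.6% higher in mouse 3. Each mouse has 1 library per cheek, so the difference between mice has no replicate check.

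**Figure D2:**
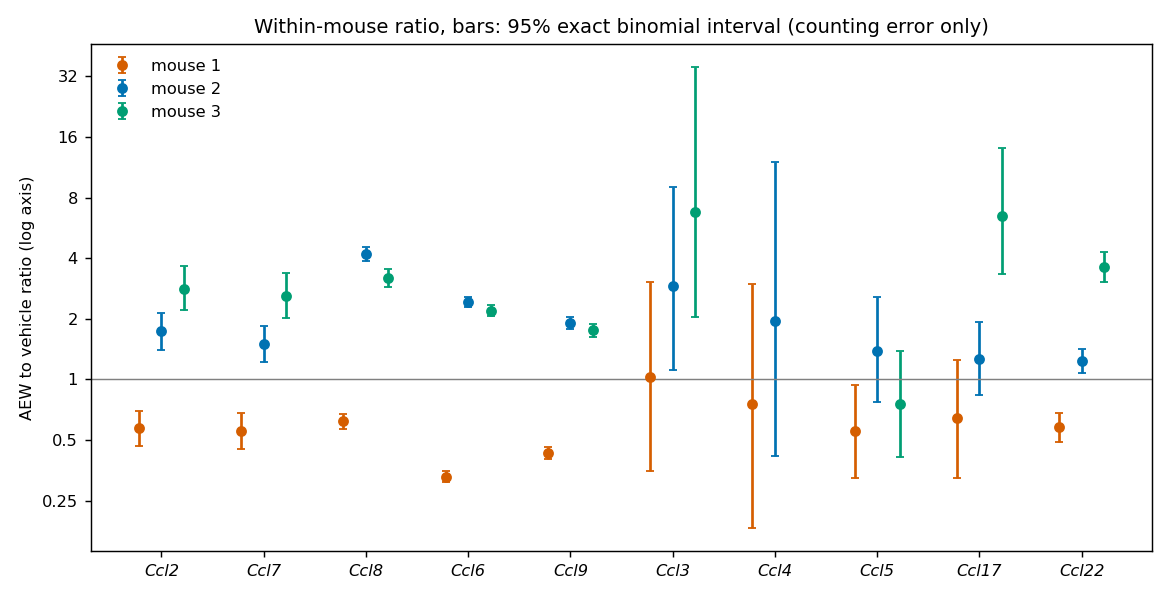
AEW to vehicle ratio of each chemokine in each mouse (log axis), with 95% exact binomial intervals that cover counting error only. Ratios of mouse 1 lie below 1 except for Ccl3, and Ccl4 in mouse 3 is not drawn because its vehicle library had 0 counts.

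Leaving out both libraries of mouse 1, in a fit blocked by animal, 6 of 9 tested members were called higher in the edgeR test, Ccl2, Ccl3, Ccl6, Ccl7, Ccl8 and Ccl9, while 12.7% of all tested genes were higher and 10.5% lower. Log2 fold changes in that fit were 1.88 for Ccl8 (adjusted p = 0.000332), 1.20 for Ccl6 (adjusted p = 0.000638), 0.87 for Ccl9 (adjusted p = 0.00155), 1.13 for Ccl2 (adjusted p = 0.0115), 0.97 for Ccl7 (adjusted p = 0.0245) and 2.07 for Ccl3 (adjusted p = 0.0368). Ccl22 (1.04, adjusted p = 0.0649), Ccl17 (1.41, adjusted p = 0.133) and Ccl5 (0.037, adjusted p = 0.96) were not called. Without the block, which was tried once the values were known, 5 of 9 were called, against 7.02% of all genes higher and 4.85% lower. With mouse 2 or mouse 3 left out instead, also added later, 0 of 8 were called, against 0.738% and 0.0% of all genes called higher and 1.84% and 0.0% called lower. These fits rest on 2 mice each, and mouse 1 was singled out with its values known, so they describe mice 2 and 3 and are no test of the treatment.

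The 3 most similar pairs of members over the 6 libraries were close neighbours in the genome, but not every neighbouring pair was similar. Of the 28 pairs of tested members, the highest Pearson correlations of log2 CPM were 0.99 for Ccl2 and Ccl7, 0.98 for Ccl6 and Ccl9 and 0.98 for Ccl17 and Ccl22. Ccl2 lies next to Ccl7 in the RefSeq gene order, and Cx3cl1 lies between Ccl22 and Ccl17. Ccl5 lies next to Ccl9, and that pair was at 0.63, while Ccl2 and Ccl9, which are not direct neighbours, were at 0.91. Among the 21 pairs without Ccl5 correlations ran from 0.54 to 0.99, and the 7 pairs with Ccl5 ran from -0.28 to 0.63. The points share mice, libraries and the treatment, so these values describe the libraries only. Among 13748 other genes (mean log2 CPM of 1 or more), Tmem11 (r = 0.997), Vps18 (r = 0.997) and Zbtb32 (r = 0.995) were most like the mean standardised value of the members, and 288 genes had r over 0.9. Those most like Ccl8 were Rgs2 (r = 0.997), a regulator of G protein signalling, Dclre1c (r = 0.993), a DNA repair nuclease, and Ms4a6d (r = 0.993), a membrane protein of macrophages.

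**Figure D3:**
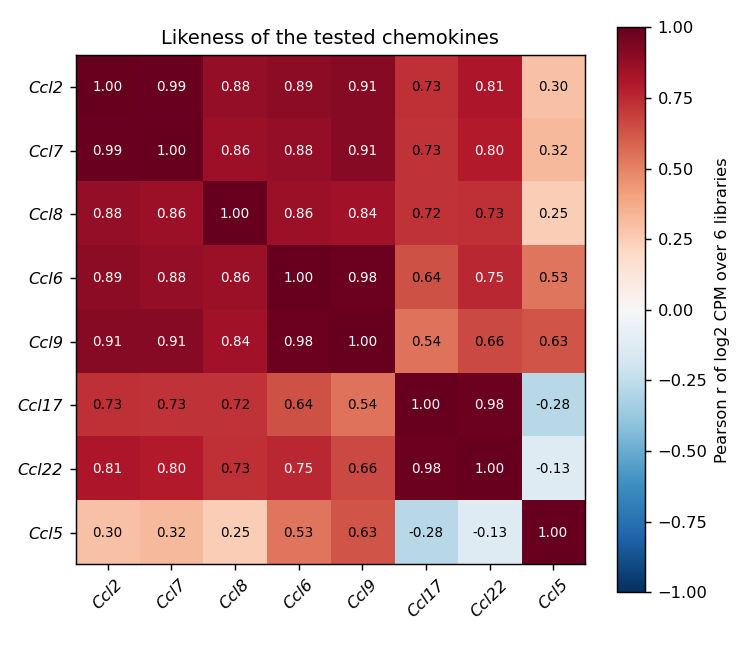
Pearson correlation of log2 CPM over the 6 libraries for each pair of the 8 tested chemokines (colour and number). The pairs Ccl2 and Ccl7, Ccl6 and Ccl9, and Ccl17 and Ccl22 are at 0.98 to 0.99, and the row of Ccl5 holds the lowest values, from -0.28 to 0.63.

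Per gene length, Ccl8, Ccl6 and Ccl9 supplied most of the transcripts of this set. In deposited TPM, Ccl8 averaged 263 ± 185, Ccl6 154 ± 73.4 and Ccl9 52.3 ± 19.7 (SD, n = 6 libraries), and together they made up between 80.9% and 90.5% of the summed TPM of the 10 genes. Ccl8 exceeded Ccl6 in 6 of 6 libraries, although their ranges over libraries overlapped. Ccl2 (21.9 ± 8.20), Ccl7 (21.4 ± 7.43) and Ccl22 (19.1 ± 9.10) formed a middle group whose order changed between libraries, and so did Ccl17 (6.85 ± 4.42) and Ccl5 (4.97 ± 1.27), Ccl17 being higher in 3 of 6 libraries. Ccl3 (1.29 ± 0.86) was above Ccl4 (0.84 ± 0.80) in 6 of 6 libraries, with overlapping ranges. The summed TPM was 657, 355 and 238 in vehicle skin of mice 1, 2 and 3 and 352, 1008 and 664 in AEW skin.

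The sum of monocyte and macrophage markers moved with the chemokines from library to library. The 16 markers, from the pan-macrophage receptor genes Csf1r and Adgre1 to the complement genes C1qa to C1qc, summed to 2278, 1134 and 935 CPM in vehicle skin of mice 1, 2 and 3 and to 971, 2457 and 1807 CPM in AEW skin. None was at 0, and 0 of 16 were called in either direction by edgeR, where Cd68 had a log2 fold change of 0.72 (adjusted p = 0.331) and Ms4a7 1.14 (adjusted p = 0.172). In the blocked fit without mouse 1, 14 of 16 were called higher, against 12.7% of all tested genes. Mertk and Lyve1 were not called there. Mertk was nearly level, at 19.8, 19.0 and 18.8 CPM in vehicle skin of mice 1, 2 and 3 and at 18.8, 16.9 and 17.2 CPM in AEW skin. Lyz2 alone gave 874 CPM of the sum in vehicle replicate 1 and 512 CPM in AEW replicate 3. The correlation of log2 levels with this sum over 6 libraries was 0.996 for Ccl6, 0.983 for Ccl9, 0.911 for Ccl2, 0.897 for Ccl7 and for Ccl8, 0.743 for Ccl22, 0.644 for Ccl17 and 0.524 for Ccl5. The share of all genes with such correlations was not counted. The part of macrophage number in the chemokine values was not tested.

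**Figure D4:**
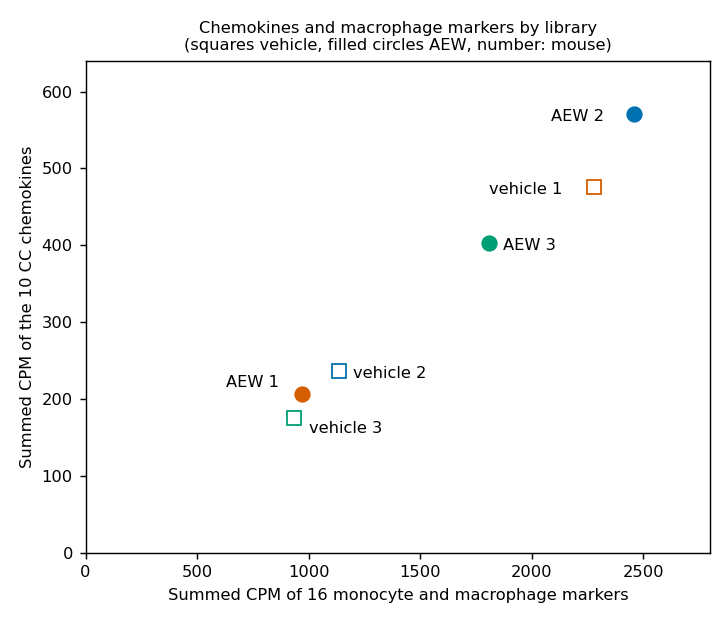
Summed CPM of the 10 chemokines (y axis) against the summed CPM of 16 monocyte and macrophage markers (x axis) in the 6 libraries, with colour by mouse. Vehicle replicate 1 lies with AEW replicates 2 and 3 at the upper right, and AEW replicate 1 with vehicle replicates 2 and 3 at the lower left.

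Other cell type markers showed the following counts past the threshold, where 4.85% of all tested genes were higher and 6.8% lower. Neutrophil markers, S100a9 (log2 fold change 3.59, adjusted p = 0.0352) and the receptor gene Cxcr2 (1.81, adjusted p = 0.0377) among them, rose in 3 of 4 tested. The list holds 10, and Ly6g, Retnlg, Mmp8, Ltf, Camp and Ngp had too few counts for the test. Their mean CPM in AEW was higher for Ly6g, Retnlg, Mmp8 and Ltf and lower for Camp and Ngp. Of 11 T cell markers 1 rose (Foxp3, the regulatory T cell factor, 1.41, adjusted p = 0.0433) and 1 fell (Cd3g, a receptor chain, -0.74, adjusted p = 0.0216). Of the neutrophil markers 1 of 4 was called when the fit was blocked by mouse, and 0 were called with vehicle replicate 1, 2 or 3 or AEW replicate 2 or 3 left out. In the same blocked fit S100a9 (adjusted p = 0.0709), Foxp3 (0.105) and Cd3g (0.0508) missed the threshold, and S100a9, Cxcr2 and Foxp3 were each called in 1 of 6 fits with a library left out, the 1 being AEW replicate 1. Of 15 dendritic and Langerhans cell markers 1 rose, Fscn1 (0.95, adjusted p = 0.0167), an actin-bundling gene of mature dendritic cells. The median log2 fold change of that list was -0.20. Zbtb46 (-0.64, edgeR adjusted p = 0.0613) and Cd83 (-0.20, adjusted p = 0.617) were lower without a call. Keratinocyte markers rose in 3 of 10 (Krt14 by 0.97 and Krt1 by 1.89 on the log2 scale), fibroblast markers in 1 of 9 (Pdgfra, 0.51), and sebaceous markers in 1 of 8 with 1 lower (Elovl3, 1.13, and Mgst1, -0.46). Endothelial markers fell in 2 of 8 (Emcn, -0.60, and Prox1, -0.64), mast cell markers in 1 of 9 (Mrgprb2, -0.79) and adipocyte markers in 1 of 8 (Adipoq, -0.94). Among the mast cell markers Hdc was higher without a call (0.48, edgeR adjusted p = 0.172). In the blocked fit the fibroblast, mast cell and adipocyte calls were lost, as were Mgst1 and Prox1 (adjusted p from 0.0669 to 0.114). No call was made among 4 eosinophil and basophil, 3 B cell and 5 blood markers.

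Receptors of the CC class gave no call. Of 9 tested CC receptors 0 were called in either direction, and the smallest p values were those of Ccr10 (log2 fold change -0.93, adjusted p = 0.182) and Ccr7 (0.84, adjusted p = 0.211). The cognate receptors below were chosen for the ligands after their values were seen. Ccr2, the receptor for Ccl2 and Ccl7, was at 78.8, 36.6 and 28.7 CPM in vehicle skin of mice 1, 2 and 3 and at 31.7, 71.5 and 53.6 CPM in AEW skin. Its vehicle library was thus the higher in mouse 1 and its AEW library in mice 2 and 3, as for Ccl6 (log2 fold change 0.12, edgeR adjusted p = 0.874). Ccr4, the receptor for Ccl17 and Ccl22, was at 5.03, 5.62 and 6.00 CPM in vehicle and at 2.63, 4.41 and 5.63 CPM in AEW, with no high vehicle library in mouse 1 (log2 fold change -0.39, adjusted p = 0.395).

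All 5 atypical chemokine receptors had lower levels in AEW skin of every mouse. Of all tested genes 50.7%, 50.8% and 49.4% were lower in mice 1, 2 and 3, and the share lower in every mouse was not counted. Of 5 tested, 4 fell and 0 rose, where 6.8% of all tested genes fell. Ackr2, the scavenger of inflammatory CC chemokines on lymphatic vessels, was at 19.7, 21.7 and 20.3 CPM in vehicle skin of mice 1, 2 and 3 and at 7.95, 10.9 and 13.3 CPM in AEW skin. The groups did not overlap, where 19.5% of all tested genes were lower without overlap. The log2 fold change of Ackr2 was -0.94 ± 0.19 (SE, edgeR adjusted p = 0.0281). Ackr1, which carries chemokines across venules, fell from 20.5 ± 0.99 to 12.5 ± 1.48 CPM (SD, n = 3 each; log2 fold change -0.72 ± 0.12 SE, edgeR adjusted p = 0.0181). Ackr4, a scavenger of Ccl19 and Ccl21, fell by 0.71 and Ackr3, which binds Cxcl12, by 0.67 on the log2 scale (adjusted p = 0.021 and 0.0298). In the fit blocked by mouse Ackr1 alone was past the threshold (adjusted p = 0.0428), with 0.0505 for Ackr2, 0.0556 for Ackr4 and 0.0853 for Ackr3. With a library left out, the number that fell was 1 (vehicle replicate 1), 3 (vehicle replicate 2), 0 (vehicle replicate 3), 4 (AEW replicate 1), 0 (AEW replicate 2) and 3 (AEW replicate 3). Endothelial markers, whose cells express several of these receptors, summed to between 379 and 489 CPM in vehicle and between 279 and 354 CPM in AEW, and their part in the result was not tested.

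**Figure D5:**
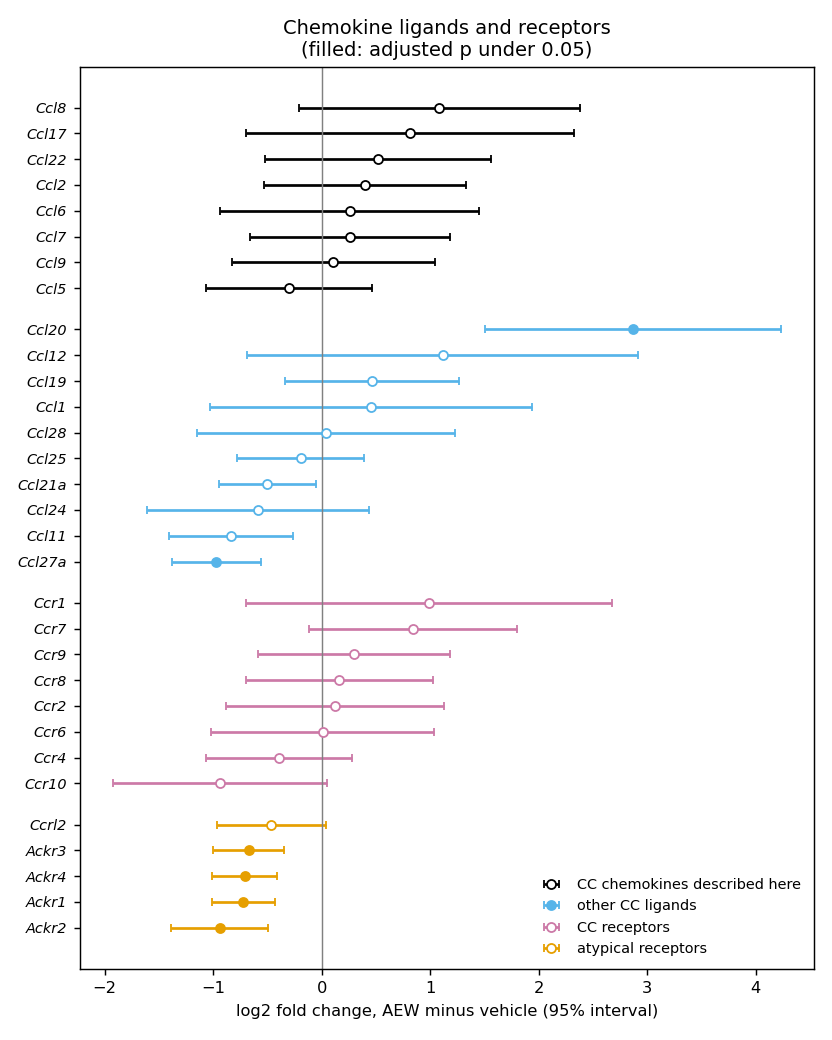
Log2 fold change of AEW against vehicle skin with 95% intervals (x axis) for the 8 tested chemokines, 10 other CC ligands, 8 of the 9 tested CC receptors and 5 atypical receptors, with filled points for an adjusted p under 0.05. Every interval of the 8 chemokines covers 0, and those of 4 atypical receptors lie wholly below 0.

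Other ligands gave few calls. Of 10 other CC ligands 1 rose and 1 fell: Ccl20, a Ccr6 ligand, by 2.87 and Ccl27a, a keratinocyte chemokine, by -0.97 on the log2 scale (edgeR adjusted p = 0.0286 and 0.0207). In the blocked fit the adjusted p of Ccl27a was 0.0534. Ccl20 passed without AEW replicate 1 (adjusted p = 0.00373) and missed the threshold without any other single library, at 0.0557 to 0.122. Of 12 tested CXC and other ligands 2 rose and 0 fell, Cxcl1 (2.42, adjusted p = 0.0121) and Cxcl16 (0.86, adjusted p = 0.0492), which draws Cxcr6-bearing T cells and stood at 0.0535 in the blocked fit.

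Genes that induce or process these chemokines were mostly without a call. Of 22 genes of NF-kappaB signalling, the main inducer of Ccl2 and Ccl5, 0 were called, with Myd88 at a log2 fold change of 0.46 (adjusted p = 0.0555) and Tnfrsf1a at 0.31 (adjusted p = 0.0832). Interleukin 4 and 13 signalling induces Ccl17 and Ccl22. Of 15 tested genes listed for it, 0 rose and 1 fell, Arg1 (-1.01, adjusted p = 0.0183). That list also holds Tslp, Il33 and their receptor genes Crlf2 and Il1rl1, and Il4 and Il13 themselves were not tested. Of 6 tested genes of colony-stimulating factors and their receptors (Csf1, Il34, Csf1r, Csf2ra, Csf2rb and Csf3r) 0 rose and 1 fell. The 1 was Il34 (-0.56, adjusted p = 0.0309, and 0.0532 when blocked by mouse), a Csf1r ligand of keratinocytes. Csf2, Csf3, Il3 and Il5 were not tested. Of 11 genes that trim chemokines or make the heparan sulfate that holds them 2 rose, the protease gene Mmp14 (0.70, adjusted p = 0.0459) and Ext1 (0.37, adjusted p = 0.0375, and 0.0777 when blocked), a heparan sulfate polymerase gene. In these 8 ligand, receptor and pathway lists together 5 of 90 tested genes rose and 7 fell, where 4.85% of all tested genes rose and 6.8% fell, and the counts were 0 and 0 without vehicle replicate 3.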

How the data were processed

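Per the file headers, the authors deposited estimated counts, FPKM and TPM for each library, and their means per group. The deposited FPKM values were not used here. HISAT and GRCm39 are named in the submitters' processing notes, while neither counting tool nor annotation is named. Reads were single ends of 50 bases, per the labels.

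Estimated counts were rounded, filtered with filterByExpr (minimum count 10), scaled by TMM and compared by edgeR 4.0.16 (R 4.3.3, quasi-likelihood test, group as covariate) with Benjamini-Hochberg adjustment over 15109 genes. Standard errors follow from each fold change and F statistic. Intervals of ratios are exact binomial. DESeq2 1.42.0 and limma 3.58.1 (log2 of deposited TPM plus a pseudocount of 0.1 or 1, genes with TPM of at least 0.5 in 3 libraries, and voom) were alternatives. The test was tried on simulated counts.

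Both cheeks of a mouse share its number, so the numbers pair libraries by animal. For mice 1, 2 and 3, both cheeks' deviations from their group means had correlations of -0.244, -0.165 and -0.246. Between cheeks of different mice they ran from 0.050 to 0.181, so cheeks with the same number were not the most alike. The pairing rests on the labels. Replicate libraries differed by more than sampling noise, with the lowest chi-square per degree of freedom at 17.0.

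Members and lists were chosen with earlier results of these data known. Genes named were the members, the called genes of 8 theme lists (or the 2 with the smallest p), the 2 of smallest p in 15 marker lists, and the 3 most similar genes. Promoter windows came from RefSeq (GRCm38.p6), with 6 of 10 members matched. A comparison of the proteins was not made. The values of 1 CC receptor are not reported here.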

Additional observations from a re-analysis of the deposited data

How the results depend on the processing

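No member was called in the alternatives that kept all 6 libraries. The median log2 fold change of the 8 to 10 members tested was 0.33 in the main fit. It ran from 0.28 (upper quartile scaling) to 0.47 (deposited TPM, pseudocount 0.1) over the fits of all 6 libraries. With a library left out it was 0.046 to 0.75. With the block it was 0.28 with mouse 2 left out, -0.13 with mouse 3 left out and 1.09 with mouse 1 left out. With mouse 1 left out and no block it was 1.04. The count of members called higher was 0 to 1 with a library left out, 6 with mouse 1 left out and the replicate block for mouse, and 5 with mouse 1 left out and no block. With a library left out, the log2 fold change ran from 0.098 to 0.89 for Ccl2, -0.50 to 0.00029 for Ccl5, -0.11 to 0.87 for Ccl6, -0.056 to 0.73 for Ccl7 and -0.15 to 0.64 for Ccl9. For Ccl5 it was 0.037 with mouse 1 left out and the block and 0.041 with mouse 1 left out and no block. With mouse 2 left out and the block it was -0.24 for Ccl6, -0.20 for Ccl9 and -0.28 for Siglecf. With mouse 3 left out and the block it was -0.0084 for Ccl2, -0.17 for Ccl6, -0.13 for Ccl7, -0.14 for Ccl9, -0.11 for Ccl17 and -0.24 for Ccl22. Leaving out mouse 2 or 3, and mouse 1 with no block, were chosen after seeing the data.

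Over all genes, higher and lower counts were 733 and 1027 without the block, 300 and 588 with the mouse as replicate block, 366 and 654 with limma-voom and the block, 1922 and 1588 with mouse 1 left out and the block, 112 and 279 with mouse 2 left out and the block, and 0 and 0 with mouse 3 left out and the block. DESeq2 called 1362 higher, and limma on TPM called 676 lower at a pseudocount of 0.1 and 682 at 1. Upper quartile scaling gave 612 higher and 1297 lower. With a library left out, higher counts ran from 23 to 1197 and lower counts from 117 to 1041. In the 8 ligand, receptor and pathway lists, 5 of 90 tested genes were higher and 7 lower (4.85% and 6.8% of all genes). These became 9 and 11 with DESeq2 (9.01% and 10%) and 3 and 2 with the mouse as replicate block (1.99% and 3.89%). With limma-voom and the block 4 were lower (4.33%). With mouse 1 left out 36 were higher with the block (12.7% of all genes) and 19 without it (7.02%). Genes were also lower in both of those fits, 4 of 5 atypical receptors among them (10.5% and 4.85% of all genes). With mouse 2 or mouse 3 left out and the block the counts were 0 and 0. With a library left out they ran from 0 to 13 higher and 0 to 8 lower. The cause of these shifts was not tested. The protein comparison planned was not run. Ccl3 and Ccl4 are limited by depth, at 66 and 37 counts in all.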

Other observations

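The following values were picked out after the data were seen and are given as a description. The ratio of Ccl8 to Ccl6 in TPM was 1.14, 1.49 and 1.08 in vehicle skin of mice 1, 2 and 3 and 2.15, 2.58 and 1.56 in AEW skin. The groups did not overlap, and the ratio was higher in AEW in 3 of 3 mice, mouse 1 included, where both genes were lower in AEW. Of 15108 other tested genes, 1.54% were higher and 1.14% lower without overlap relative to Ccl6. As a percentage of the summed CPM of the 16 macrophage markers, Ccl8 was at 3.34%, 3.72% and 2.71% in vehicle and at 4.85%, 7.20% and 4.46% in AEW, while Ccl6 averaged 7.97% ± 0.74 in vehicle and 7.92% ± 0.99 in AEW (SD, n = 3 each). Ccl8 and Ccl3 were the 2 of 10 members without overlap on that scale, where 1.73% of all 15109 tested genes were higher and 3.53% lower without overlap. Ccl3, which did not pass the filter on low counts, was at 0.0219% ± 0.0058 and 0.0492% ± 0.0125. A ratio of this kind shows unequal change and not which gene changed.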
